A study of Mus musculus with 2 samples.

Results

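Long non-coding RNA (lncRNA) promoters that were open in mouse cerebral cortex and lay away from protein-coding genes were 861 of the 44745 open chromatin regions shared by 2 mice. A shared region was formed where a peak of each mouse overlapped by at least 1 bp, with overlapping peaks merged, and it was kept where it lay within 500 bp of a transcription start site (TSS) of a lincRNA, antisense, sense_intronic, bidirectional_promoter_lncRNA or processed_transcript gene of GENCODE M21 and over 2000 bp from every protein-coding TSS. Distances were taken from the nearest base of the region.

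The study mapped open chromatin by DNase-seq, in which nuclei are treated with DNase I and the ends of the cuts are sequenced. The tissue was the left cerebral cortex of male B6CASTF1/J mice aged 2 months, a cross between C57BL/6J and CAST/EiJ, with no other tissue, age, sex or treatment. The labels number the 2 samples as biological replicates and describe them as males 05 and 06 under 1 strain-level donor record, so they form 1 group and no test between groups was possible. Replicate 1 had 65017 peaks and replicate 2 had 76962 in the shorter of the 2 lists deposited for each. The files gave no read counts, so the depth of each library is unknown. Peak heights are the authors' own values.

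Of 5 marker promoters each, 3 of excitatory neurons (Camk2a, Emx1, Neurod6), 3 of astrocytes and 3 of oligodendrocytes held a shared region, as did 1 of inhibitory neurons, 1 of microglia, 0 of vessel cells and 0 of other tissues. The mice differed: 4 inhibitory and 5 excitatory markers had a peak in replicate 1, against 1 and 3 in replicate 2, and what part this has in differences between the mice was not tested. In bulk tissue, a promoter open in few cells and one weakly open in many cannot be told apart.

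A lncRNA is a transcript that is not translated into a protein, and most are made by RNA polymerase II from promoters like those of coding genes. Some act in the nucleus as scaffolds or as silencers of neighbouring genes, some are precursors of small RNAs, and many have no known function. Because lncRNA genes often start beside a coding gene and share its open promoter, regions at a distance from coding starts are those whose openness is not shared with a nearby coding start in the annotation.

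Sequences of 7 regions show what such promoters look like: 2 abundant lncRNAs (Malat1 and Snhg8), 2 imprinted ones (Meg3 and Kcnq1ot1), 2 with a cAMP response element (Gm20732 and 1810044D09Rik) and the one with the greatest excess in replicate 2 among regions above the median height (A830036E02Rik). They are read 5′ to 3′ on the strand of the lncRNA from the RefSeq copy of GRCm38.p6 (mm10), which is the C57BL/6J sequence, so the CAST/EiJ allele is not shown. Where a region exceeded 300 bp, its central 300 bp are given. Capitals mark bases that lay in a footprint of both replicates, a footprint being a short stretch inside open chromatin that the authors called as protected from cutting.
Malat1 (chr19:5802581-5802820, minus strand): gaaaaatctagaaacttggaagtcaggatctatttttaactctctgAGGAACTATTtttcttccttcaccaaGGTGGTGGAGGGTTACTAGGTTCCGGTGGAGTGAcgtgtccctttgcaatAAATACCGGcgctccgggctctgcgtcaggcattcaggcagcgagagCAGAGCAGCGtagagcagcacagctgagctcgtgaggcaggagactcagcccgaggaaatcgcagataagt
Snhg8 (chr3:123508321-123508600, minus strand): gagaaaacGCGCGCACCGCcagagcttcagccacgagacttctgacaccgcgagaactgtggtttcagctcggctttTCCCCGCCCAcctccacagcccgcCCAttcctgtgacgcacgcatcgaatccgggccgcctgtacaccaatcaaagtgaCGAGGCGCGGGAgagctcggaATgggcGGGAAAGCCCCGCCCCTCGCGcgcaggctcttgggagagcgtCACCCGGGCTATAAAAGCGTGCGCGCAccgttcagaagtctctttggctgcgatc
Meg3 (chr12:109540771-109541070, plus strand): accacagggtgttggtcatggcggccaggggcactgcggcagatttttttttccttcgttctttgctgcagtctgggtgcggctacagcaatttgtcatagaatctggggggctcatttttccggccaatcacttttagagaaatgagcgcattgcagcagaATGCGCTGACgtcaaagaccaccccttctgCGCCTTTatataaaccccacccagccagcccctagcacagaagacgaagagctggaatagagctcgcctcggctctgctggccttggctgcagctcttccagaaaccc
Kcnq1ot1 (chr7:143296511-143296810, minus strand): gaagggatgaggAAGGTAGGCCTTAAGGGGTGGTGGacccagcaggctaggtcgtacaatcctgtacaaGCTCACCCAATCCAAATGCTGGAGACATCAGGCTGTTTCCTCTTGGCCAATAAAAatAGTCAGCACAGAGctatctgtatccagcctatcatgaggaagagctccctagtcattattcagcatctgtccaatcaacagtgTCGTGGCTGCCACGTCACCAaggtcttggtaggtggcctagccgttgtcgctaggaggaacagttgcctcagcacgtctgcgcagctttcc
Gm20732 (chr15:68363241-68363540, minus strand): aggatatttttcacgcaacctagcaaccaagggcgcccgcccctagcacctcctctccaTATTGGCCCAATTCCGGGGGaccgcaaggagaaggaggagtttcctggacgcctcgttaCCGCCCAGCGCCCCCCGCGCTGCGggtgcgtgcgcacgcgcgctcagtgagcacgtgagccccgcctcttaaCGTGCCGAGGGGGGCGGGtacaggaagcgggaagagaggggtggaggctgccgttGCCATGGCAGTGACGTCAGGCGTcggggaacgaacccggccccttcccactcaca
1810044D09Rik (chr6:91440841-91441060, plus strand): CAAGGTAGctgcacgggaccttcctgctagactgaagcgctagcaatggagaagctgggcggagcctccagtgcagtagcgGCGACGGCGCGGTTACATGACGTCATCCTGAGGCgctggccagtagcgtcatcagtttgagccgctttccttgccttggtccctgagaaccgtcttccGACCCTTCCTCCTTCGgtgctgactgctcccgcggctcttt
A830036E02Rik (chr11:99416929-99417228, plus strand): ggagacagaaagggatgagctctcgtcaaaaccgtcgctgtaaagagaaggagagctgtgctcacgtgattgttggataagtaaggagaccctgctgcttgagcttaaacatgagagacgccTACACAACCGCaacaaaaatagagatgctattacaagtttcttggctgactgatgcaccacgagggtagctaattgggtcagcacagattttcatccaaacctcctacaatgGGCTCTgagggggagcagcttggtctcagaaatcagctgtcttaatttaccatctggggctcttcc

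In Snhg8 a GC box (CCCCGCCCC, bases 191 to 199 of the printed stretch) and a TATA box (TATAAA, bases 235 to 240) lay wholly in footprints of both mice, and the TATA box began 36 bp upstream of the annotated TSS at base 271. In Gm20732 the palindromic cAMP response element TGACGTCA, the site bound by CREB family factors, filled bases 256 to 263, and in 1810044D09Rik bases 99 to 106. All 8 bases were in footprints of both mice in each. The Meg3 stretch also held the element, at bases 169 to 176, with 4 of its 8 bases in footprints, and a TATAAA that began 30 bp upstream of the TSS with 0 of its bases in them. The Malat1 and Kcnq1ot1 stretches held none of the 11 motifs searched, yet 63 of the 240 bases of Malat1 and 112 of the 300 of Kcnq1ot1 lay in footprints of both mice. In A830036E02Rik 17 of 300 bases did.

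Few annotated lncRNA genes had an open promoter of this kind. Of the 10120 annotated genes of the 5 types, 7960 had a TSS over 2000 bp from every coding TSS, and 779 of these were open, 9.79% (exact Clopper-Pearson 95% interval 9.14% to 10.5%, counting error over genes only). The share of protein-coding genes with a shared region within 500 bp of a TSS was 56%. Among the types, processed_transcript genes were open in 103 of 500 cases, 20.6% (17.1% to 24.4%), and lincRNA genes in 520 of 5408, 9.62%. Antisense genes were open in 146 of 1760, 8.30% (7.05% to 9.68%), and sense_intronic genes in 9 of 282, 3.19% (1.47% to 5.97%). The interval of processed_transcript genes lay above those of the antisense and sense_intronic genes. A further 6205 eligible genes, 78.0%, had no peak in any of the 4 deposited lists, 146 had one in replicate 1 alone and 210 in replicate 2 alone.

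The 861 regions lay nearest to 564 lincRNA, 157 antisense, 129 processed_transcript and 10 sense_intronic TSSs and 1 bidirectional_promoter_lncRNA TSS. They belonged to 756 distinct nearest genes, of which 91 had more than 1 region and none more than 4. The regions were mostly intergenic, 711 of them, while 120 lay in an intron and 30 in an exon of a coding gene. Where there was a coding host, the lncRNA ran on the opposite strand alone in 124 cases and on the same strand alone in 23. The chosen types include antisense genes, so an excess on the opposite strand follows in part from the choice. The same split over all eligible genes was not computed. The distance to the nearest coding TSS ran from 2035 bp to 2072 kb with a median of 34.1 kb. Chromosome 13 held the most, 67, or 3.40% of its shared regions, beside 861 of the 44745 shared regions in all. Chromosome 1 held 64, or 2.18%, and chromosome 17 held 60, or 3.19%. Chromosome Y held 0 of 21, too few shared regions to read. At the limits of the selection, Gm39244 lay 500 bp from its region (0.842 in replicate 1 and 0.581 in replicate 2) and a region 501 bp from 2410080I02Rik was left out (3.01 and 2.998). Gm30731, 2035 bp from Pou3f2, was kept (0.924 and 0.952), and A930019D19Rik, 1995 bp from Ralgapa2, was not (0.643 and 0.918).

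The lncRNA regions were lower than coding promoters and higher than distal regions. Their median peak height was 1.25 in replicate 1 and 0.999 in replicate 2. Coding promoter regions, 15227 shared regions within 500 bp of a coding TSS, had medians of 2.77 and 1.57. The 23895 distal regions, over 2000 bp from every annotated TSS, had 0.894 and 0.817. Coding medians were thus 2.21 times the lncRNA median in replicate 1 and 1.57 times in replicate 2, a log2 difference of 1.14 and 0.65. The order of the 3 kinds was the same in both mice. Of the lncRNA regions 18.1% lay in the highest quintile of height, against 20% of all shared regions by construction, 48.1% of coding promoters and 4.19% of distal regions.

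The gap to coding promoters was smaller between regions of the same CpG class. CpG-rich regions, defined by a GC content of at least 50% and CpG at 0.6 or more of its expected frequency in 500 bp, were 214 of the 861, 24.9% (22.0% to 27.9%), against 29.2% of all shared regions, 74.5% of coding promoters and 2.75% of distal regions. CpG-rich lncRNA promoters had median heights of 2.51 and 1.46 in replicates 1 and 2, and CpG-rich coding promoters 3.53 and 1.89. The 647 CpG-poor lncRNA regions had 1.06 and 0.932, against 1.29 and 0.993 for CpG-poor coding promoters and 0.876 and 0.810 for CpG-poor distal regions. Within a class the log2 gap between coding and lncRNA medians was 0.49 and 0.37 for CpG-rich regions and 0.28 and 0.09 for CpG-poor ones.

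**Figure D1:**
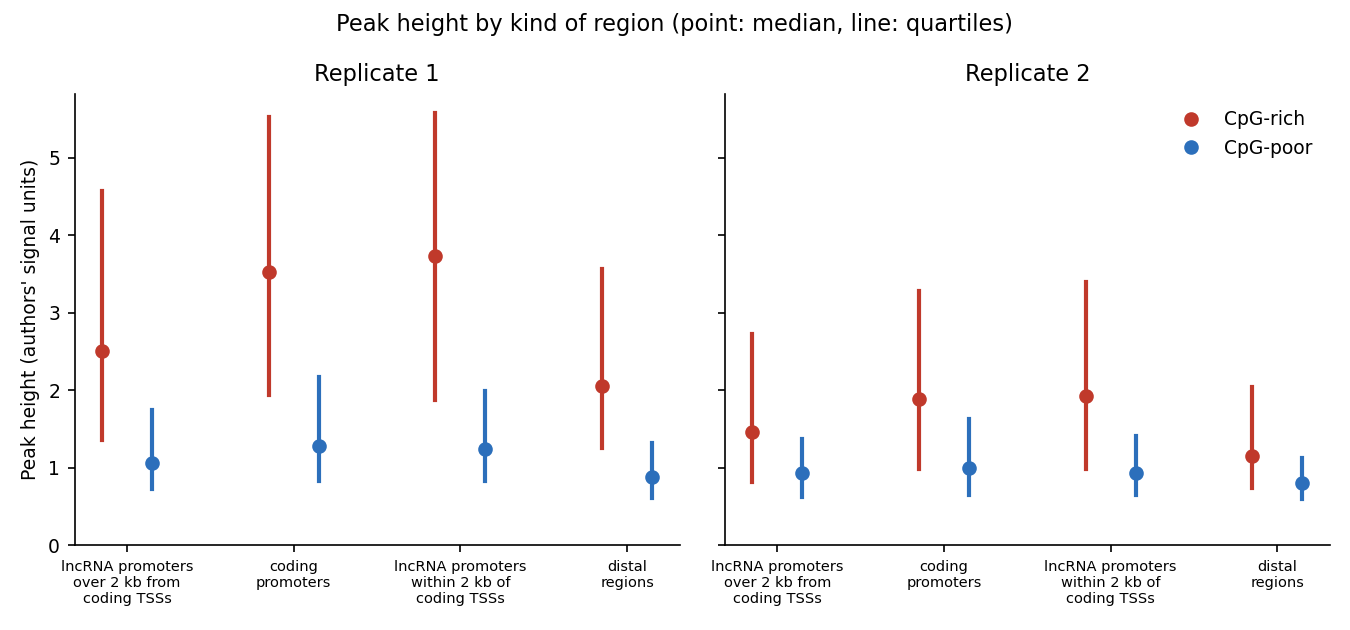
Peak height in the authors' signal units (vertical axis) for 4 kinds of region, split by CpG content, with replicate 1 and replicate 2 in separate panels; points are medians and lines run between quartiles. In both mice the CpG-rich points lie above the CpG-poor ones, and the lncRNA promoters away from coding genes (medians 2.51 and 1.06 in replicate 1) lie between coding promoters and distal regions.

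Promoters near coding genes differed from those away from them. The 1551 regions at a lncRNA TSS that lay within 2000 bp of a coding TSS had medians of 2.98 and 1.61, and 79.9% were CpG-rich. Among the 861 the height also went down with distance. At 2 to 10 kb from a coding TSS (n = 194) the medians were 1.59 and 1.21, and over 200 kb away (n = 91) they were 0.971 and 0.817. The CpG-rich share was 30.9% in the near bin and 7.69% in the far one. Whether CpG content accounts for the trend in height was not tested. A TSS lay inside the region in 450 cases, with medians of 1.44 and 1.11 and 32.2% CpG-rich, and outside it in 411, with 1.11 and 0.912 and 16.8%. The 129 processed_transcript regions had medians of 1.65 and 1.30, the 564 lincRNA regions 1.18 and 0.976 and the 157 antisense regions 1.20 and 0.925.

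Openness around the start was asymmetric. The share of bases with a deposited false discovery rate (FDR) of the cut rate under 0.001 was highest from 40 to 20 bp upstream of the TSS in replicate 1, at 66.9%, and from 60 to 40 bp upstream in replicate 2, at 67.5%. Coding promoters reached 92.5% and 87.3% in the same bins. Over the 300 bp upstream of the lncRNA TSS the mean share was 56.7% in replicate 1 and 56.3% in replicate 2, and over the 300 bp downstream it was 45.2% and 40.5%. Upstream exceeded downstream by less at coding promoters in replicate 1 (81.8% against 79.8%) and by a similar amount in replicate 2 (75.8% against 60.6%). The regions were chosen by their distance to the TSS, so that cutting is high near it follows from the choice. The TSS lay inside 450 of the 861 regions, against 11464 of the 15227 coding ones. Of the 411 lncRNA regions with the TSS outside, 244 lay upstream of it and 167 downstream. What part this placement has in the asymmetry and in the gap to coding promoters was not tested.

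**Figure D2:**
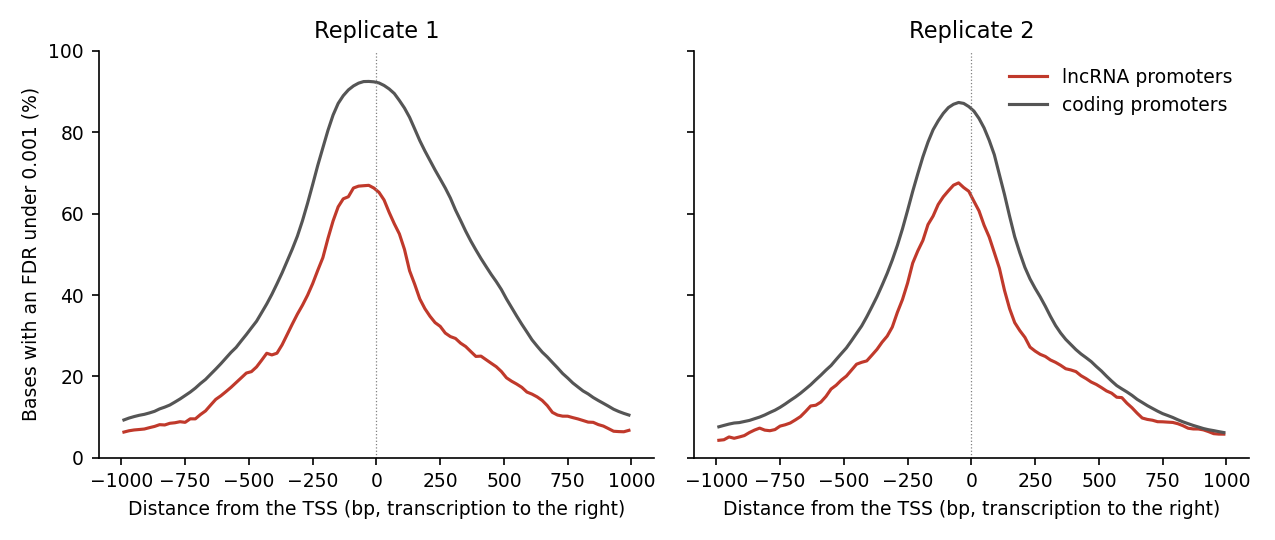
Share of bases with an FDR under 0.001 (vertical axis, %) in 20-bp bins by distance from the TSS (horizontal axis, bp, transcription to the right), for coding promoters and lncRNA promoters, 1 panel per replicate. Both curves crest just upstream of the TSS, at 66.9% and 67.5% for lncRNA promoters and 92.5% and 87.3% for coding ones.

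The tallest region of all was at Gm42418, 44.8 in replicate 1 and 33.6 in replicate 2 (chr17:39846781-39846920), but 83.6% of its 25-base words occur more than once in the genome, so its height is uncertain. Of the 25 tallest regions 23 were single-copy, 24 were CpG-rich, 15 held the TSS and 24 were higher in replicate 1. Those 23 ran from 5.68 to 11.3 in replicate 1 and from 4.19 to 8.37 in replicate 2. The tallest single-copy region by the mean of both mice was at 1810026B05Rik, also known as Chaserr, which lies beside Chd2, the gene of a chromatin remodeller, and lowers its expression: 10.6 and 8.37, with the Chd2 TSS 16.7 kb away. Next came 1700028E10Rik (11.3 and 7.34), 6720427I07Rik (11.03 and 7.16), Gm12762 (10.97 and 6.99) and 1700113A16Rik (9.07 and 8.27). The region at 1700113A16Rik lies 9.75 kb from a GENCODE TSS of Mef2d, a neuronal transcription factor gene. It lies 35629 bp from the nearest curated RefSeq mRNA start of Mef2d. The rest were Gm10433, 1700096K18Rik, Gm13421, Tmem250-ps, Snhg8, Gm20732, Gm15408 (the CpG-poor one), Zswim6, Gm31812, Gm10010, Gm12915, 2810410L24Rik, Gm6410 (5.68 and 6.14, the one higher in replicate 2), B230208H11Rik, Gm26901, 9430037G07Rik (59.8% multi-copy), 2410006H16Rik, 1700020I14Rik and 1700012D14Rik. In all, 21 of the 861 regions were at least 50% multi-copy.

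Some of these genes carry a coding transcript in another annotation. Of the 861 regions 28 lay within 500 bp of a curated RefSeq mRNA start, 19 of them of a gene with the same symbol. Zswim6 was among them, at 8.41 and 4.98, as were Tmem250-ps (10.1 and 6.19) and Tctn2 (3.95 and 4.65), which GENCODE M21 does not type as coding. The 28 had medians of 1.62 and 1.27, and 42.9% were CpG-rich.

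Well known nuclear and abundant lncRNAs were open at 8 of 16 eligible genes, beside 9.79% of all eligible genes, with medians of 2.88 and 1.499. The list and the others below were drawn up with earlier results of these data known, so their counts are descriptions. Dleu2, the host of a pair of microRNAs, had 5.04 in replicate 1 and 3.12 in replicate 2 at the tallest of its 3 regions. Malat1, a nuclear speckle RNA, had 4.64 and 3.50, and Neat1, the RNA core of paraspeckles, 3.42 and 1.80. Peg13 had 2.95 and 1.68, Epb41l4aos 2.80 and 1.29, Firre 2.34 and 1.30, Meg3 1.55 and 1.32 and Mirg 0.812 and 0.567. All 8 were higher in replicate 1. Miat and Pvt1 had a peak in replicate 1 alone, at 1.31 and 1.68, and Rmst had one in each mouse (0.496 and 0.412) that did not overlap. Sox2ot had a peak in 1 longer list alone, and Rian and Gm26917 had none. Tug1 (6.09 and 4.43) and Crnde (3.76 and 2.44) had a shared region only within 2000 bp of a coding TSS, so they count among the 16 eligible genes but not among the 8 open ones.

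The genes listed as hosts of small RNAs were open in 14 of 19 eligible cases, 73.7%, beside 9.79% of all eligible genes, with medians of 2.64 and 1.52. The 8 snoRNA hosts among them ran from Snhg8 (8.73 and 5.84) through Snhg15 (6.96 and 3.92) and Snhg5 (5.43 and 3.43) to Snhg14 (0.393 and 0.358). These genes carry small nucleolar RNAs, many of which guide modification of ribosomal RNA, in their introns. Of the 6 microRNA hosts Mir670hg was the tallest in both mice (3.49 and 1.97). Mir124a-1hg (2.15 and 1.64) and Mir124-2hg (1.58 and 1.40, with 4 regions) are hosts of the neuronal microRNA miR-124. Mir9-3hg had 2.28 and 0.939, Mir17hg 2.07 and 0.966 and Mir99ahg 1.97 and 1.35, so the lowest host was Mir124-2hg in replicate 1 and Mir9-3hg in replicate 2. Mir155hg and Mir142hg, hosts of microRNAs of blood and immune cells, were not open. Mir155hg had a peak in 1 longer list alone and Mir142hg had none. Mirt1, a listed gene whose role as a host was not checked, was not open either and had a peak in both longer lists alone. Snhg1 (6.41 and 4.83) and Gas5 (6.99 and 4.94) were open within 2000 bp of a coding TSS.

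LncRNAs of X inactivation and imprinting were open at 8 of 13 genes, 61.5%, beside 9.79% of all eligible genes, with medians of 1.55 and 1.01. Kcnq1ot1, which silences its neighbours on the paternal chromosome, had 3.72 in replicate 1 and 4.66 in replicate 2 from a region within an intron of a coding gene, 162 kb from the Cdkn1c TSS. It was 1 of 203 lncRNA regions that were higher in replicate 2. Ftx and Jpx, which promote Xist expression, had 3.45 and 2.74 and 1.54 and 0.696, at the taller of 2 regions each. Nespas, antisense at the Gnas locus, had 1.21 and 0.621 from a region 2.26 kb from the nearest coding TSS. Peg13, Meg3, Mirg and Snhg14 are given above. Xist and H19 had no peak, Rian none, Tsix had one in 1 longer list, and Airn had one in replicate 1 alone (0.527). In males, whose single X is not silenced, Xist is known to be off.

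Genes listed as opposite-strand lncRNAs of developmental factors were open in 0 of 14 eligible cases, which allows a share of up to 21.4% (3 counts of the total, counting error only). That limit lies above the 9.79% of all eligible genes, so the count cannot be told apart from the background. The list also holds genes not typed as antisense, such as Sox2ot (processed_transcript) and Rbakdn (lincRNA), and their strand was not checked. Pantr1, next to the cortical factor gene Pou3f3, had a peak of 1.13 in replicate 1 alone, and Wt1os one of 0.641 in replicate 2 alone. Dlx1as, Sox2ot, Pantr2 and Nkx2-2os had a peak in 1 longer list alone, while Hotair, Fendrr and Six3os1 had no peak. Emx2os (1.21 and 0.878) and Foxd2os (1.11 and 0.486) had a shared region. Every TSS of these genes lay within 2000 bp of a coding TSS, so they were not eligible.

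**Figure D3:**
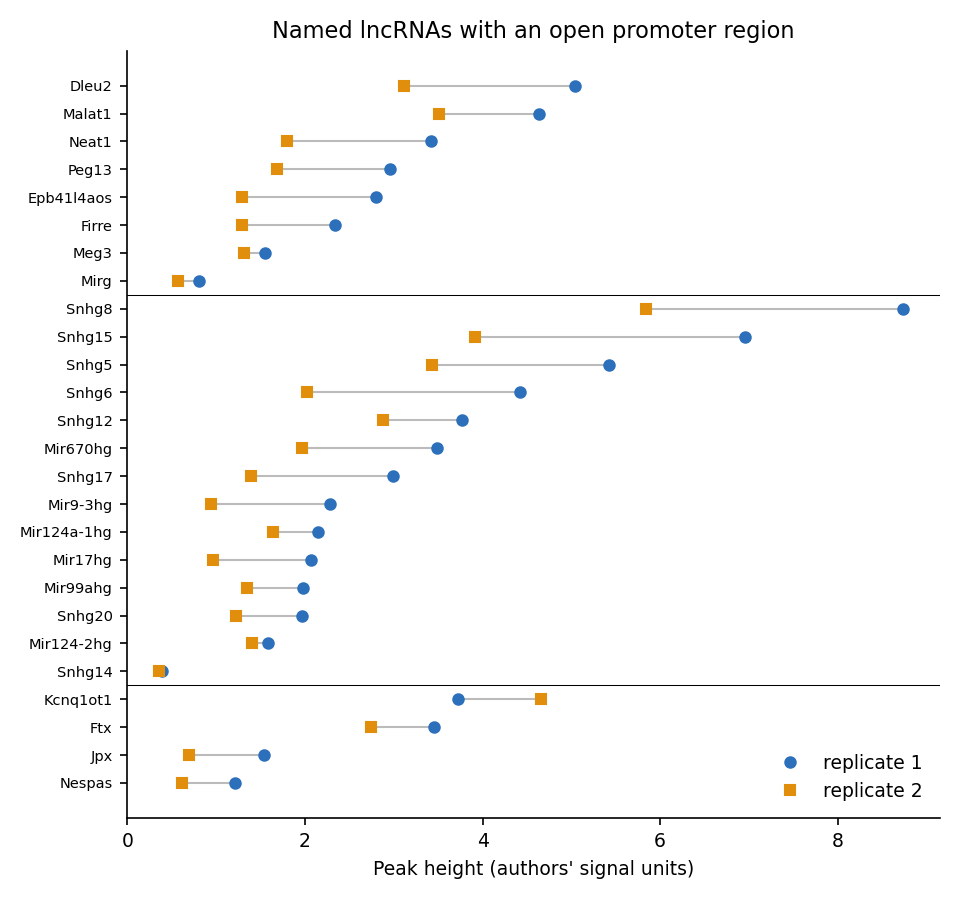
Peak height in the authors' signal units (horizontal axis) at the named lncRNAs with an open promoter region, 1 row per gene, circles for replicate 1 and squares for replicate 2; black lines separate, from the top, nuclear and abundant lncRNAs, small RNA hosts, and X inactivation and imprinted lncRNAs, with a gene of more than 1 list shown once. Snhg8 reaches the greatest height, 8.73 and 5.84, and Kcnq1ot1 has its square to the right of its circle, at 4.66 against 3.72.

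The 2 mice ranked the regions alike. How the heights were scaled is not stated, so the 2 replicates may not be on one scale. Every ratio between the mice, 2-fold count and count of regions higher in 1 mouse, above or below, is of the heights as deposited. Spearman's rho of the 2 heights was 0.826 over the 861 regions and 0.930 over coding promoters, as a description, since the regions share both libraries. Replicate 1 was higher at 658 regions, 76.4%, against 74.3% of all shared regions. The median log2 ratio of replicate 2 over replicate 1 was -0.41 for the lncRNA regions, -0.70 for the CpG-rich ones and -0.29 for the CpG-poor ones. It was -0.76 for coding promoters and -0.46 for all shared regions. Replicate 1 was over 2-fold higher at 92 of the lncRNA regions, 10.7%, against 14.5% of all shared regions, and replicate 2 at 6, 0.70%, against 1.89%.

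Among regions above the median height the widest gaps towards replicate 1 were at Gm28050, with 3.19 in replicate 1 and 0.999 in replicate 2, and at Gm12052, with 2.50 and 0.783. AC122818.1 (2.16 and 0.756), 2700038G22Rik (3.17 and 1.11) and 1700012C14Rik (2.20 and 0.851) came next. The widest gap towards replicate 2 was at A830036E02Rik, with 0.747 and 2.06, a log2 ratio of 1.46, in an intron of a coding gene 5.01 kb from Krt12. Gm37892 (0.950 and 1.88), Gm3693 (1.30 and 2.39, within an intron of a coding gene near Slc8a3), Bvht (1.07 and 1.83), a lncRNA named for its part in heart lineage commitment, and Gm36495 (0.920 and 1.51) followed. With 1 library per mouse there is no error for any single ratio.

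**Figure D4:**
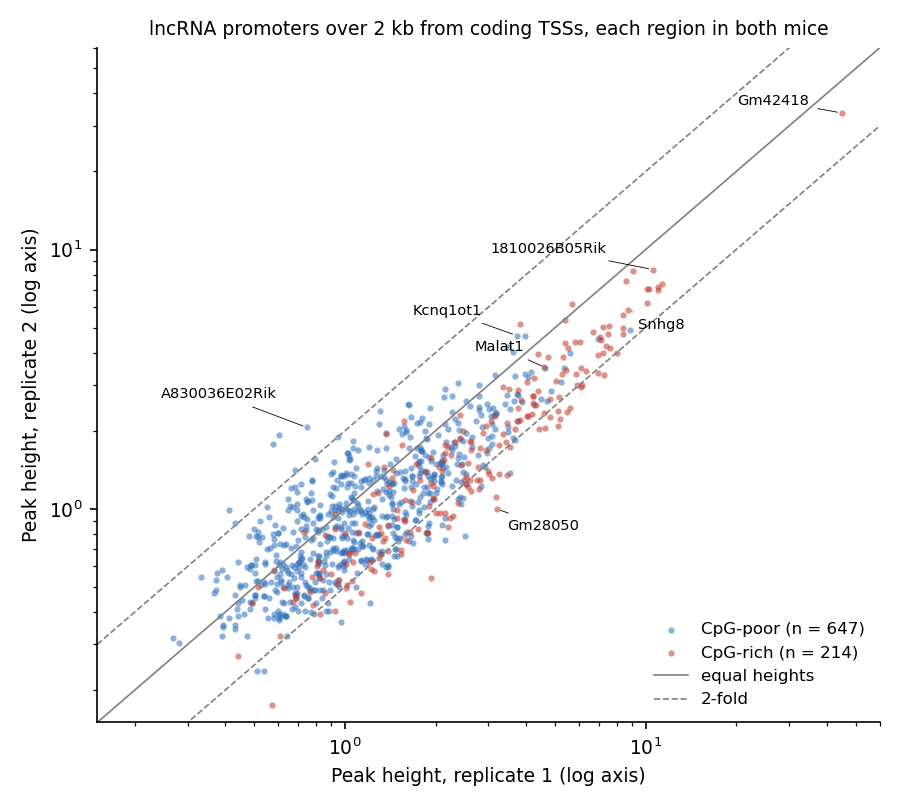
Peak height in replicate 1 (horizontal, log axis) against replicate 2 (vertical, log axis) for each of the 861 lncRNA promoter regions, coloured by CpG content, with lines of equal height and of 2-fold difference. Of the points 658 lie on the replicate 1 side, and 92 lie beyond the 2-fold line on that side against 6 on the other.

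Chromosome X carried 24 of the regions. Their medians were 1.45 and 0.861, beside 1.25 and 0.999 for the 837 autosomal regions, and 58.3% were CpG-rich against 23.9%. Coding promoters on the X were lower than on autosomes, 1.57 and 0.982 against 2.84 and 1.60. The lncRNA medians on the X were thus above the autosomal ones in replicate 1 and below them in replicate 2.

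Some coding genes were the nearest to several regions. Mef2c, a transcription factor gene of cortical neurons, was the nearest coding gene of 5 regions, 4 at C130071C03Rik and 1 at Gm26803. They lay 68.2 to 85.6 kb from a GENCODE TSS of Mef2c. The nearest of them by that measure, at C130071C03Rik, lay 147454 bp from the curated RefSeq mRNA start of Mef2c. The regions at C130071C03Rik ran from 0.751 to 2.47 in replicate 1 and from 0.500 to 1.82 in replicate 2. Mkln1 likewise had 5, at Lncpint, a p53-induced lncRNA, and 2210408F21Rik. Mir124-2hg and 3110039I08Rik had 4 regions each, from 0.695 to 1.58 and from 1.40 to 2.77 in replicate 1. The widest regions were at G730013B05Rik, at 1220 bp, C130073E24Rik, 1160 bp, AC115789.1, 1048 bp, A330040F15Rik, 1031 bp, and Lncppara, 979 bp, and the narrowest of the 861 was 57 bp against a median of 257 bp.

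Footprints were found in nearly all of the regions. At least 1 footprint of each mouse lay inside 800 of the 861 regions, 92.9% (91.0% to 94.5%), beside 92.2% of all shared regions, so this share is near the background. Footprints covered 17.7% of the bases in replicate 1 and 14.1% in replicate 2, and 8.31% of bases were covered in both, against 11.2% in coding promoters and 7.86% in distal regions. Of the 3110 footprints of replicate 1, 49.8% overlapped one of replicate 2, and of the 2708 of replicate 2, 59.8% overlapped one of replicate 1. The same shares were 52.5% and 62.8% over all shared regions. They were 56.1% and 69.7% in coding promoters and 49.6% and 56.9% in distal regions. By counts not adjusted for width, the most footprints in both mice were at 2410080I02Rik, with 12 and 13. That region was 940 bp wide, against a median of 257 bp. Gm15247 (11 and 10, 92.4% multi-copy), Gm44066 (10 and 9) and Lncpint (9 and 10) followed. The fifth place was tied among regions with 8 in the lower mouse, of which C130073E24Rik (16 and 8), named after its values were seen, had the most in replicate 1. The widest region, at G730013B05Rik, had 10 in replicate 1 and 0 in replicate 2.

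Motifs in the central 300 bp of each region, searched on both strands, placed the lncRNA promoters between coding promoters and distal regions for most of the 11 sequences. The GC box GGGGCGGGG, bound by SP family factors, was in 67 of the 861 regions, 7.78%, against 20.3% of coding promoters, 1.97% of distal regions and 8.60% of all shared regions. The ETS site CCGGAAGT was in 2.44%, against 7.03%, 0.444% and 2.76%. Among CpG-rich regions the gap to coding promoters was smaller, with the GC box in 21.5% of lncRNA regions against 24.4% and the ETS site in 7.01% against 8.73%. Among CpG-poor regions the GC box was in 3.25% against 8.17%. The AP-1 site TGANTCA was in 12.8%, against 4.67%, 18.5% and 13.1%, and the NEUROD-type E-box CAGATGG in 8.48%, against 3.83%, 13.6% and 9.76%. The TATA box TATAAA was in 8.36%, against 4.03%, 12.3% and 9.04%. These shares lie close to those of all shared regions. The remaining motifs were rare, with NRF1 in 3 regions, YY1 in 2, CTCF in 27, 3.14% against 4.49% of all shared regions, and NFI in 1.

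The cAMP response element was in 24 regions, 2.79%, against 3.53% of coding promoters, 0.69% of distal regions and 1.73% of all. Among CpG-rich regions it was in 13 lncRNA ones, 6.07%, against 3.99% of coding promoters. Among CpG-poor regions it was in 11 lncRNA ones, 1.70%, against 2.19% of coding promoters. Those 24 included Tmem250-ps, Gm20732, 1810044D09Rik, Snhg15, Mir124-2hg, Mir9-3hg, Meg3 and Gm26803, and 10 of them lay in the highest quintile of height, which held 18.1% of the 861 and 20% of all shared regions. A match was counted as in footprints where, in each mouse, at least as many of its bases lay inside them as outside. By that rule 15 of the 26 occurrences of the element inside the regions, 57.7%, lay in footprints of both mice. The share was 76.2% in coding promoters, 53.7% in distal regions and 69.7% over all shared regions. For CTCF 21 of 27 did, 77.8%, beside 81.3% over all shared regions. For the GC box 41 of 77 did, 53.2%, beside 53.1%, and for AP-1 5 of 122, 4.10%, beside 4.51%, so these shares are near the background. The MEF2 site, whose reverse strand holds TATAAA so that each match is also a TATA box match, was in 5 regions: 8030423F21Rik, Dleu2, 1700016P03Rik, Gm11750 and Gm47212. That is 0.58%, against 0.13%, 0.21% and 0.17%. A TATAAA that began 25 to 36 bp upstream on the gene's strand was found at 5 of the 450 regions that hold their TSS, 1.11%, at 1700016P03Rik, 9330159M07Rik, Meg3, Neat1 and Snhg8, against 61 of 11464 coding ones, 0.532%. A match is a description of the letters and not of a bound factor.

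**Figure D5:**
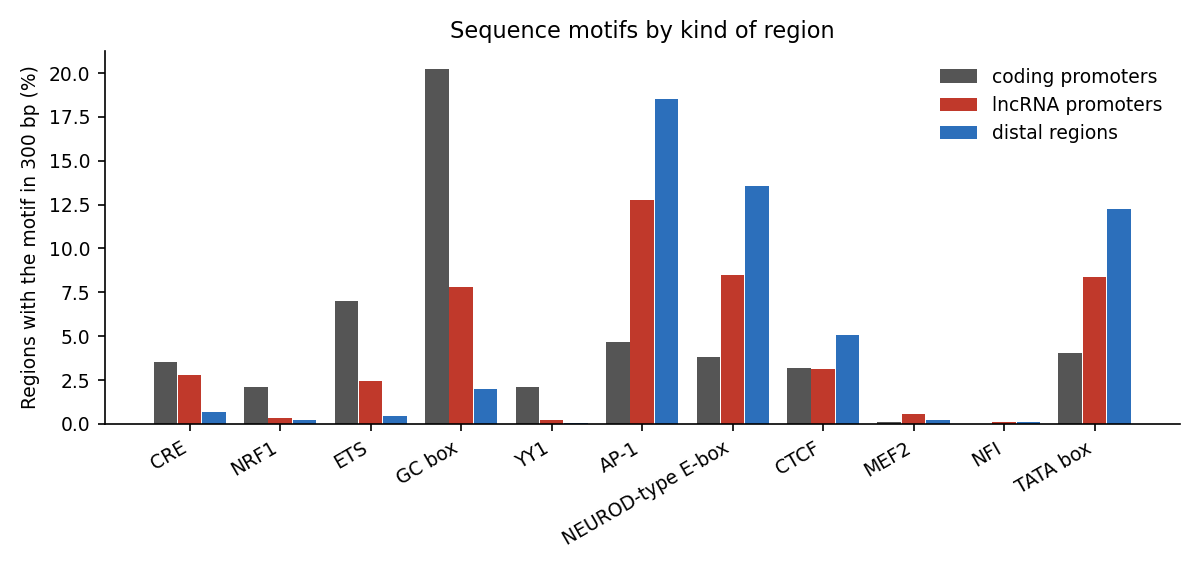
Share of regions that hold each of 11 motifs in their central 300 bp (vertical axis, %), with bars for coding promoters, lncRNA promoters and distal regions. The GC box falls from 20.3% to 7.78% to 1.97% across the 3 kinds, and AP-1 rises from 4.67% to 12.8% to 18.5%.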

How the data were processed

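DNase-seq was done on 2 cortex samples in 1 group. Per the labels, the assembly was mm10, and each replicate had its own peaks, footprints and false discovery rates (FDR), not pooled. The deposited peak height is a signal of unstated scaling, and the deposited FDR of the cut rate is a q-value listed only under 0.05. Aligner, callers and settings were not given in the sources used here. Each replicate has 2 peak lists that its notes describe alike, and the one with fewer rows was used. Sequenced reads were aligned by the authors to a reference of 1 parent strain, per the assembly in the labels, and mapping of CAST/EiJ reads was not tested.

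Regions, TSS distances (GENCODE M21), CpG content, footprints wholly inside a region, motifs and the share of 25-base words found more than once on chromosomes 1 to 19, X and Y were computed with Python 3.11.15, pandas 2.3.3, numpy 2.4.6 and numba 0.67.0, on code tested on simulated intervals. Height was that of the tallest peak of a replicate in the region. Intervals are exact Clopper-Pearson (scipy 1.17.1) and cover counting error over regions or genes only. Regions are not replicates, so no p-value was computed. Named were the 25 tallest regions, 4 gene lists (88 entries), the 5 widest gaps in each direction, the regions at the limits, the 5 with most footprints (the last place tied) and the 5 widest. The members and lists were chosen with earlier results of these data known. Alternatives were the longer lists, taller peaks, other TSS windows and single replicates, and, chosen after seeing the data, regions away from RefSeq mRNA starts and single-copy regions.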

Additional observations from a re-analysis of the deposited data

How the results depend on the processing

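Over 9 results and 13 alternatives, 86 of 109 recomputed values stayed within the spread between replicates, the counting interval or 1.5 times the count, 23 moved and 0 reversed. Only the log2 gaps to coding promoters and the median log2 ratio between the mice could be scored as reversed. For those gaps the allowed spread was 0.35, the standard deviation of only 2 values. The longer peak lists gave 1306 regions, 14.3% of eligible genes open, median heights of 0.868 and 0.729, 19.3% CpG-rich, 82.5% with a footprint in both and a median log2 ratio of -0.32. Peaks at or above the median height gave 537 regions, 6.28% open, 1.88 and 1.38, 31.8% CpG-rich, 98.5% with a footprint and -0.47. A TSS within 250 bp gave 8.24% open and 28.0% CpG-rich, and within 1000 bp 11.9% and 21.6%. With single replicates, the number of regions ran from 1137 to 1148, the share open from 11.7% to 12.4%, the CpG-rich share from 19.9% to 24.6%, and the log2 gap to coding promoters was 0.83 in replicate 1 and 0.71 in replicate 2, with medians of 1.02 in replicate 1 and 0.804 in replicate 2. The cause was not tested, beyond fewer or more peaks entering by construction. No paired analysis was possible because there is 1 group. Depth is unknown, so an unlisted promoter is not shown to be closed.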
